A study of Mus musculus with 88 samples.

Results

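The expression of 46 chemokine and chemokine receptor genes, of 17097 genes with a single-gene probe set, was examined in whole blood of SNF1 mice, the F1 hybrids of SWR and NZB mice, which develop lupus nephritis with age. Genes were taken by symbol (Ccl, Cxcl, Xcl, Cx3cl, Ccr, Cxcr, Xcr or Ackr followed by a number), with Cxcr2, Ccr2, Ccr3, Ccr7, Ccr9 and Ccl5 left out, which gave 33 ligands, 10 receptors and 3 atypical receptors. Each was read from its brightest single-gene probe set over all 88 arrays. All mice were female and gave 1 array each, in 11 groups of 8. In 5 groups the mice had received pristane, a hydrocarbon oil injected into the peritoneum at an age of 9 weeks, and were bled 2, 4, 8, 12 or 14 weeks later, and 5 groups were untreated mice matched to them by age. The last group held untreated mice at an age of 36 weeks with spontaneous disease, chosen by their proteinuria, so that age and disease cannot be told apart in it. All groups shared the hybrid strain, and the labels name no plate or other batch.

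Chemokines are small secreted proteins that direct the movement of leukocytes by binding G protein-coupled receptors, and they are sorted into CC, CXC, XC and CX3C classes by the spacing of their first cysteines. Atypical receptors bind chemokines without G protein signalling and mostly remove them or shape their gradients. In lupus the system is best known for the interferon-inducible ligands of Cxcr3, which draw T cells into inflamed tissue, and for the ligands of Ccr1 and Ccr2, which draw myeloid cells.

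Signals are log2 values of the robust multi-array average (RMA), a summary of the probes of a set, so that a difference of 1 is a 2-fold change. Levels of single genes are not ranked against each other, because probe sets bind with different strength. A level taken from olfactory receptor probe sets serves only as a rough mark of dim signal. Of the 46 genes, 27 had a mean signal at or below 4.10, the 95th percentile of the means of 44 olfactory receptor probe sets, genes with no known role in blood cells, and 19 lay above it. The array spread, as the interquartile range of all probe sets, ran from 2.74 to 3.78, and its median was 3.57 in untreated mice of week 14 against 3.14 in those of week 2. As a check of the tissue, the marker lists of cell types were read as the mean log2 signal of their genes. Platelet markers had group means of 9.88 to 10.98 and erythroid markers 9.07 to 9.86. At or below the olfactory level were 5 of 8 endothelial and stromal markers, but also 3 of 5 eosinophil markers. In whole blood, fewer cells of a type and less RNA per cell cannot be told apart.

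The genes fall into clusters on the genome. In the RefSeq annotation of the assembly GRCm38.p6, 6 of them (Ccl2, Ccl7, Ccl11, Ccl12, Ccl8 and Ccl1) follow each other with no other protein-coding gene between them, and so do Ccl9, Ccl6, Ccl3 and Ccl4 next to Ccl5. Cxcr6, Xcr1, Ccr1 and Ccr1l1 also stand side by side. The 250 bases before the RefSeq start are shown for the receptor that differed most after pristane, Ccr1, for its ligand genes Ccl9 and Ccl3, and for Cxcl10, a ligand known for its induction by interferon. All 4 lie on the minus strand, Ccr1 at chr9:123968693-123968942, Ccl9 at chr11:83578637-83578886, Ccl3 at chr11:83649379-83649628 and Cxcl10 at chr5:92348890-92349139 (GRCm38.p6). Each is written 5′ to 3′, with matches to the motifs below in capitals.
Ccr1: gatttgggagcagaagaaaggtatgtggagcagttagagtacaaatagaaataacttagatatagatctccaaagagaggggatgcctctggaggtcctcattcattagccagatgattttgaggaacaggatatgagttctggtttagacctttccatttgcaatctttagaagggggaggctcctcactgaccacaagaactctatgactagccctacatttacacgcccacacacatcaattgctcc
Ccl9: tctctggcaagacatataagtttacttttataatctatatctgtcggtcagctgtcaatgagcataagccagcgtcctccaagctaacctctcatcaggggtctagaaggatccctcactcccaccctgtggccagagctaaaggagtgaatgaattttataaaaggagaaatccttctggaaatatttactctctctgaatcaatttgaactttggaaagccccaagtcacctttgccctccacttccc
Ccl3: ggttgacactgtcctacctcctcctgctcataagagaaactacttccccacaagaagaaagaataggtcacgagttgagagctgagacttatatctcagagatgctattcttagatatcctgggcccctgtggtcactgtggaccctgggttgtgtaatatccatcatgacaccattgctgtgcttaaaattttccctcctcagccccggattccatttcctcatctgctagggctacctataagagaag
Cxcl10: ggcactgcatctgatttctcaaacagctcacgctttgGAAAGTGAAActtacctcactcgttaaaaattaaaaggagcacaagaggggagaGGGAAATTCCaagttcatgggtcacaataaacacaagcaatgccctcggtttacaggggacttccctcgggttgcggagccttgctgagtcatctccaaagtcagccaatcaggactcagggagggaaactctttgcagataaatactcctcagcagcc

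Searched on both strands, the Cxcl10 window held an interferon-stimulated response element (GAAA, any 2 bases, GAAA) and a kappa B element (GGGA, any 2 bases, TTCC), which do not overlap, and the windows of Ccr1, Ccl9 and Ccl3 held no match to any of the 5 motifs. The response element occurred in 2.98% of all 32851 promoters of the RefSeq table and the kappa B element in 1.21%. The other motifs were the gamma-activated sequence (TTCNNNGAA, 7.02%), a C/EBP element (TTGCNNAA, 9.56%) and a PU.1 element (GAGGAAGT, 2.44%). Promoters of 35 of the 46 genes were in the table. The response element was found in those of Ccl19, Cxcl10 and Cxcl14, and the kappa B element in those of Ccl1, Cxcl1, Cxcl10 and Cxcl2. The gamma-activated sequence was found in those of Ccl17, Ccr1l1, Ccr6 and Cxcl14. The C/EBP element was in those of Ackr3, Ccl27a and Cxcl13, and the PU.1 element in that of Cxcr3.

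To ask which genes differed with pristane over the whole course, the 5 weekly differences were averaged, 40 arrays against 40. Of the 46 genes, 10 were higher and 4 lower at an adjusted p under 0.05 (30.4% of them), where 26.5% of all genes passed (12.8% higher and 13.7% lower), so that the share was close to that of all genes. Those higher were the receptor Ccr1, the ligands Ccl2, Ccl3, Ccl6, Ccl7, Ccl8, Ccl9, Ccl17 and Cxcl2, and the atypical receptor Ackr2. Those lower were the receptor Cxcr5 and the ligands Xcl1, Cxcl16 and Ccl27a. Ccr1 alone also exceeded 2-fold, as did 1.06% of all genes. The median difference was 0.068 over the 46 genes and 0.020 over all genes.

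**Figure D1:**
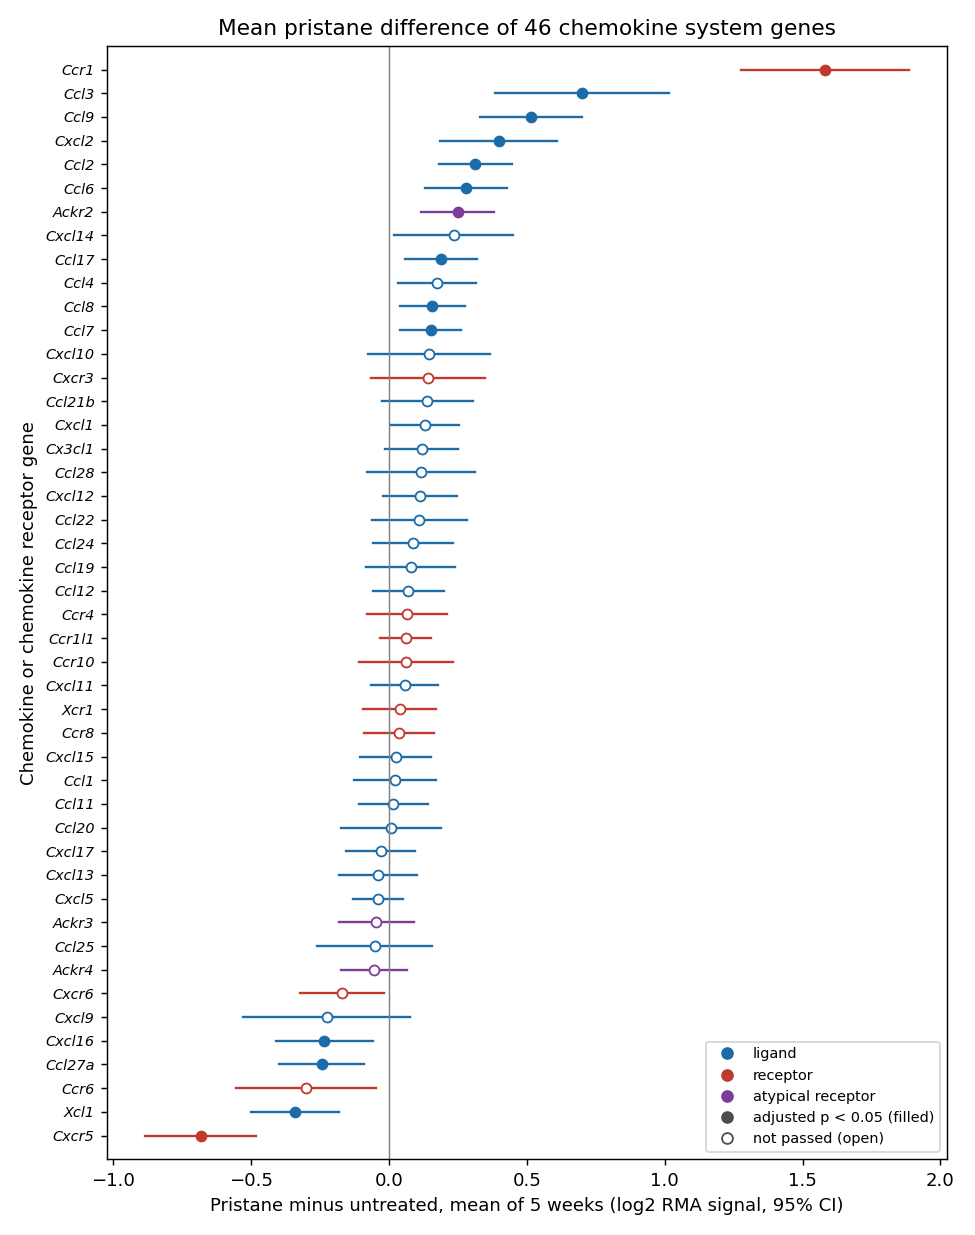
Mean pristane difference over the 5 weeks for each of the 46 genes, in log2 RMA signal on the horizontal axis, with 95% confidence intervals as lines and filled points where the adjusted p was under 0.05. Ccr1 stands alone at 1.58, Ccl3 and Ccl9 follow, and Cxcr5 is lowest at -0.68.

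Week by week, few genes of the system passed. At week 2 there were 2 higher (Ccl9, Ccr1) and 3 lower (Ackr4, Cxcr5, Xcl1), 10.9% of the 46, where 3.58% of all genes passed (2.29% higher, 1.29% lower). At week 4 Ccr1 alone passed, 2.17% of the 46 against 2.98% of all genes (2.18% higher, 0.801% lower). At week 8 it was again Ccr1 alone, against 2.63% of all genes (1.85% higher, 0.778% lower). At week 12, 4 were higher (Ccl3, Ccl9, Ccr1, Cxcr3) and Cxcr5 was lower, 10.9% against 3.77% (2.7% higher, 1.06% lower). At week 14, 4 were higher (Ackr2, Ccl2, Ccl8, Ccr1) and 2 lower (Cxcr5, Cxcr6), which is 13% against 22.4% of all genes (12.7% higher, 9.72% lower). The shares thus lay above that of all genes at weeks 2 and 12 and below it at week 14, while weeks 4 and 8 rested on 1 gene. This order depended on the threshold. At an unadjusted limma p under 0.05, the share was 17.4% of the 46 against 17.1% of all genes at week 2. It was 21.7% against 13.4% at week 4 and 17.4% against 13.3% at week 8. At week 12 it was 26.1% against 15.2%, and at week 14 it was 32.6% against 37%. Over the 5 weeks 35 of the 46 genes never passed, 8 passed once, Ccl9 in 2 weeks, Cxcr5 in 3 and Ccr1 in all 5.

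**Figure D2:**
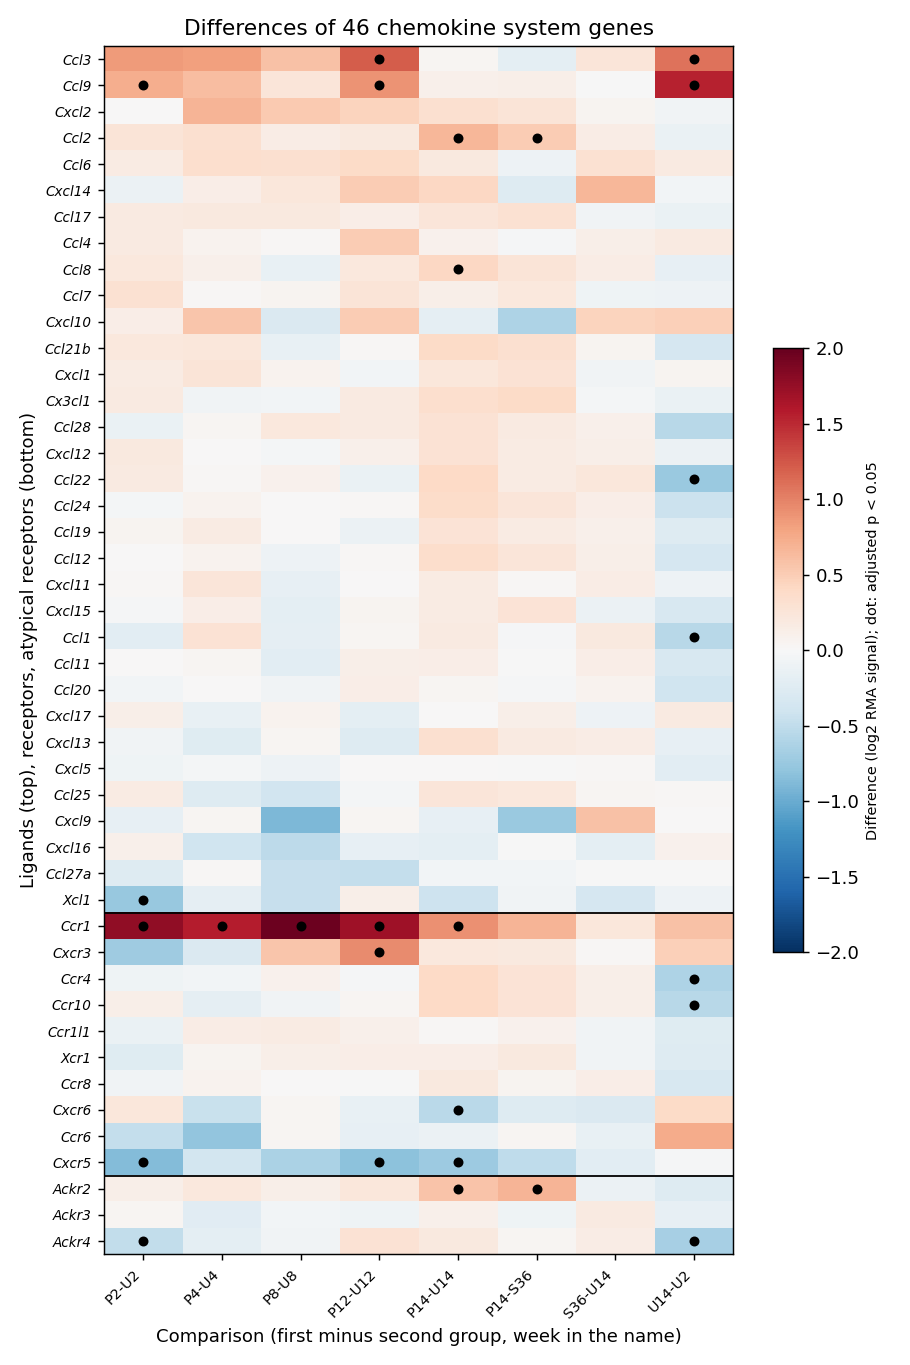
Differences of the 46 genes (rows, grouped as ligands, receptors and atypical receptors) in 8 comparisons (columns, first minus second group, P pristane, U untreated, S spontaneous disease, with the week), coloured by log2 RMA difference, with a dot where the adjusted p was under 0.05. The Ccr1 row is red with dots in all 5 pristane columns, palest at week 14, and the column of spontaneous disease against untreated mice of week 14 holds no dot.

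Ccr1 is a receptor of monocytes and neutrophils for Ccl3, Ccl6, Ccl9 and other CC chemokines. Its lowest, median and highest signals at week 2 were 6.81, 7.36 and 8.19 in pristane-treated mice and 4.59, 5.71 and 6.67 in untreated mice. At week 8 they were 6.96, 8.01 and 8.44 against 4.86, 6.06 and 6.65, and at week 12 they were 6.98, 7.69 and 8.69 against 5.71, 5.96 and 6.78. At these 3 weeks every treated mouse lay above every untreated mouse. The groups overlapped at week 4, where treated mice ran from 6.12 over 7.49 to 8.65 and untreated mice from 5.25 over 5.75 to 6.97. The lowest treated mouse there (replicate 1) was also the lowest by the mean of its interferon-induced markers, at 6.61 against 9.01 to 9.71 in the other 7. At week 14 treated mice ran from 4.26 over 7.78 to 8.00 and untreated mice from 5.22 over 6.22 to 7.69, and 1 treated mouse (replicate 7) lay far below the rest, whose lowest was 6.68.

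In fold terms Ccr1 was 3.41-fold higher at week 2 (95% CI 2.13 to 5.46, limma adjusted p = 0.000349), 2.96-fold at week 4 (1.85 to 4.75, adjusted p = 0.0022), 3.897-fold at week 8 (2.43 to 6.25, adjusted p = 5.91e-05), 3.23-fold at week 12 (2.01 to 5.17, adjusted p = 0.000878) and 1.89-fold at week 14 (1.18 to 3.03, adjusted p = 0.0434). The mean over the weeks was 2.99-fold (2.42 to 3.70, adjusted p = 3.3e-14), and whether the difference changed between weeks was not resolved (interaction adjusted p = 0.603). The call at week 14 turned on single mice. Without replicate 7 it was 2.53-fold (adjusted p = 0.000845), and without replicate 1 of the same group it was 1.75-fold and did not pass (adjusted p = 0.0955). The other Ccr1 probe set was higher in all 5 weeks too, by 3.43-fold to 5.62-fold, and by 4.20-fold at week 14 (adjusted p = 6.84e-05).

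Markers of neutrophils were higher in the same weeks as Ccr1, but so were other lists. All 10 measured neutrophil markers, none of them at or below the olfactory level, were higher at each of the 5 weeks, with group means of their mean level of 9.20 to 10.4 in treated and 7.51 to 8.21 in untreated mice. Of 9 monocyte markers 4 were higher and 1 lower in the mean over the weeks, with group means of 7.29 to 8.20 against 6.965 to 8.11. Interferon-induced markers were higher in 8 of 9 at each week, and basophil and mast cell markers in 6 of 7 in the mean. Over all genes, 1.85% (week 8) to 12.7% (week 14) were higher at a single week. In the mean 12.8% of all genes were higher and 13.7% lower. The part of any of these lists in the Ccr1 difference was not tested.

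Of the 4 neighbouring ligand genes Ccl3, Ccl4, Ccl6 and Ccl9, 3 (Ccl3, Ccl6, Ccl9) were higher in the mean over the weeks, with a median log2 difference of 0.396 over the 4. Ccl3 (MIP-1 alpha), a product of activated myeloid cells and lymphocytes, ran from 4.87 over 6.10 to 7.54 in treated mice at week 12 and from 3.26 over 5.03 to 6.12 in untreated mice. The groups overlapped, and Ccl3 was 2.31-fold higher (1.41 to 3.77, adjusted p = 0.0401), a call lost in a fit of these groups alone (adjusted p = 0.0936). Its differences at weeks 2, 4 and 8 were 0.85, 0.82 and 0.58 on the log2 scale and did not pass. At week 14 the difference was 0.04, and treated mice ran from 2.57 to 6.54, a spread wider than in any other group for this gene. Without the lowest of these mice (replicate 1) the difference was 0.43 and did not pass either (adjusted p = 0.362). In the mean over the weeks Ccl3 was 1.625-fold higher (1.31 to 2.02, adjusted p = 0.00039). Ccl4 (MIP-1 beta), its neighbour, had a mean difference of 0.17 (adjusted p = 0.0654).

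Ccl9, a chemokine of mouse myeloid cells, was higher in older untreated mice as well as after pristane. Untreated mice ran from 8.08 over 8.47 to 8.92 at week 2 and from 9.29 over 10.17 to 10.52 at week 14, so that every mouse of week 14 lay above every mouse of week 2. This was a 2.90-fold difference (2.18 to 3.87, adjusted p = 7.22e-07). Pristane-treated mice were already at 8.72, 9.23 and 9.61 at week 2, 1.65-fold above untreated mice (1.24 to 2.20, adjusted p = 0.0337), a call lost after quantile normalization (adjusted p = 0.0626). At week 12 they ran from 9.72 over 10.08 to 10.83 against 8.63, 9.23 and 10.015, a 1.86-fold difference (1.39 to 2.475, adjusted p = 0.00521). The groups of week 14 lay together at medians of 10.16 in treated and 10.17 in untreated mice, with a difference of 0.10 in the means. Against the untreated mice of week 12, treated mice of week 14 were 1.79-fold higher (1.34 to 2.38, adjusted p = 0.00327). This control was younger, and untreated means of Ccl9 were 9.31 at week 12 and 10.04 at week 14. The contrast therefore also holds the difference between these untreated groups. Monocyte markers were higher in untreated mice of week 14 than of week 2 too, 7 of 9, where 10% of all genes were higher. Their group mean was 6.965 at week 2 and 8.11 at week 14, and their part in the Ccl9 difference was not tested.

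The probe sets of Ccl9 differed at week 14. The other one, dimmer by its mean over all arrays, was 2.09-fold higher at week 12 (adjusted p = 0.00697) but lower at week 14, by a log2 difference of -0.72 (adjusted p = 0.0328). In the mean over the weeks both were higher, by 1.43-fold (1.26 to 1.62, adjusted p = 8.67e-06) and 1.26-fold (adjusted p = 0.0237). Ccl6, a close relative and neighbour of Ccl9, was higher in the mean by 1.21-fold (1.09 to 1.34, adjusted p = 0.00302) with positive differences at all 5 weeks, from 0.16 to 0.38 in log2 signal, although it did not pass at any single week. After quantile normalization of the arrays the Ccl6 mean fell to 0.18 and no longer passed (adjusted p = 0.0988).

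**Figure D3:**
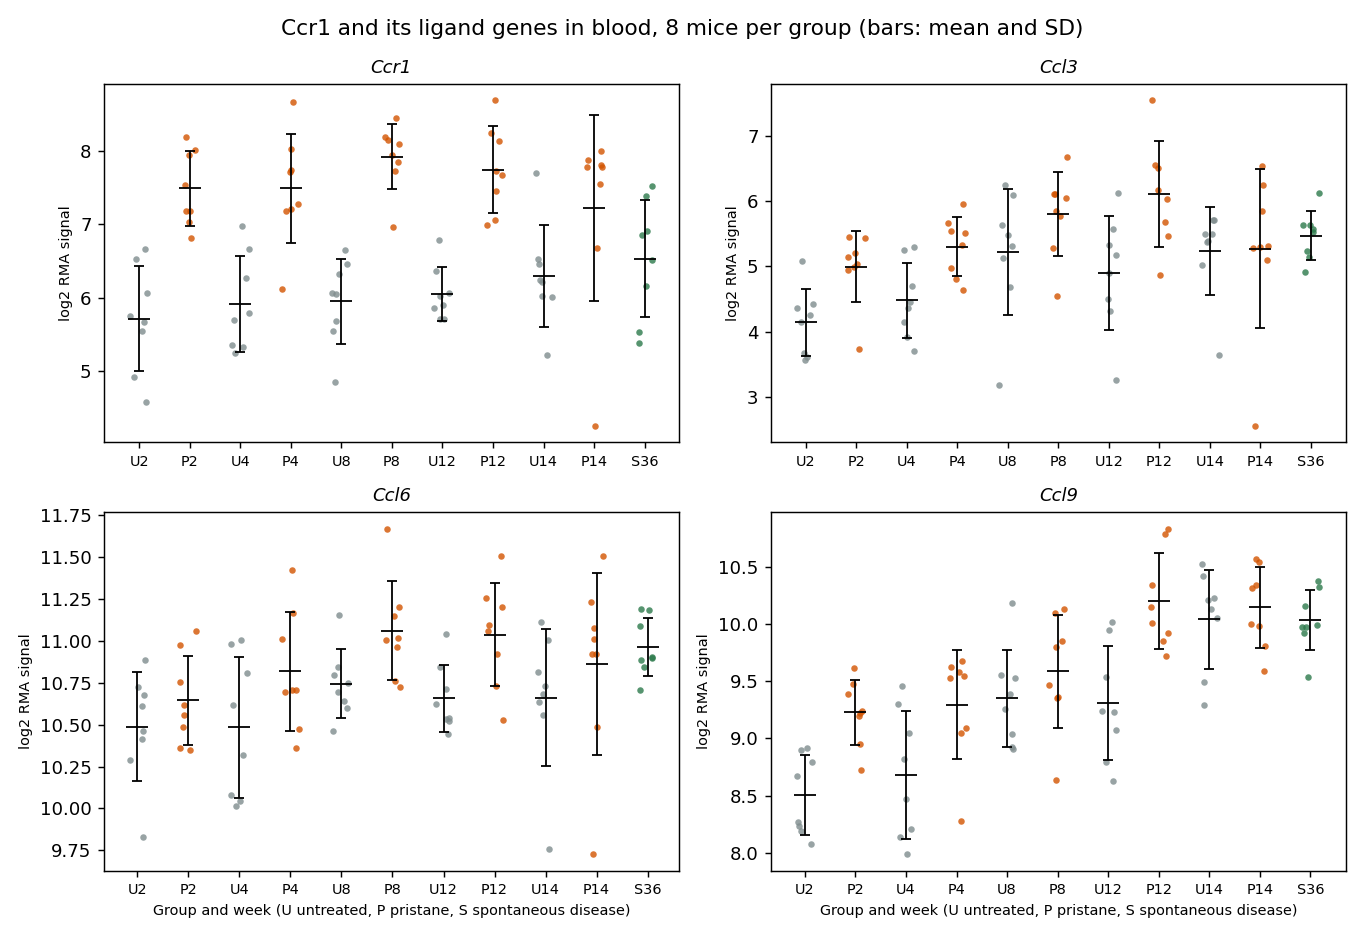
Signal of Ccr1, Ccl3, Ccl6 and Ccl9 in each mouse (log2 RMA signal, vertical axis) for untreated (U), pristane-treated (P) and spontaneous disease (S) groups by week on the horizontal axis, with bars for the mean and SD of 8 mice. The treated mean of Ccr1 lies above the untreated mean at every week, and the untreated mean of Ccl9 goes from 8.505 at week 2 to 10.04 at week 14.

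Among the ligands grouped as monocyte chemoattractants, Ccl2, Ccl7 and Ccl8 were higher in the mean over the weeks and Ccl12 had a mean difference of 0.07. Ccl7 and Ccl8 did not pass under any of the other scalings or with the array spread as a covariate. All 4 probe sets lay at or below the olfactory level. Ccl2 (MCP-1) ran from 4.19 over 4.45 to 4.64 in treated mice at week 14, from 3.33 over 3.70 to 4.25 in untreated mice, and from 3.58 over 3.79 to 4.74 in mice with spontaneous disease. Treated mice overlapped the others only through the highest untreated mouse and the highest mouse with spontaneous disease. Treated mice were above untreated mice by 0.66 in log2 signal (0.36 to 0.95, adjusted p = 0.000612). The difference from spontaneous disease was 1.42-fold (1.16 to 1.74, adjusted p = 0.0182), a call lost with the array spread as a covariate (adjusted p = 0.0525), in a fit of these groups alone (adjusted p = 0.0512) and without the spontaneous mouse of replicate 4 (adjusted p = 0.0503). Against the untreated mice of week 12, which ran from 3.50 over 3.86 to 4.15, every treated mouse of week 14 was higher, by 1.45-fold (1.18 to 1.78, adjusted p = 0.00967). At weeks 2 to 12 the Ccl2 differences ran from 0.14 to 0.31 on the log2 scale and none passed. Ccl8 was 1.34-fold higher at week 14 (1.11 to 1.61, adjusted p = 0.0172), but not with the array spread as a covariate, in a fit of these groups alone or against untreated mice of week 12.

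Ackr2, an atypical receptor that scavenges inflammatory CC chemokines, was also higher at week 14, at a signal at or below the olfactory level. It ran from 3.66 over 4.16 to 4.49 in treated mice, from 2.89 over 3.55 to 4.16 in untreated mice and from 2.78 over 3.42 to 3.899 in spontaneous disease. Treated mice were 1.48-fold above untreated mice (1.21 to 1.82, adjusted p = 0.00308) and 1.60-fold above spontaneous disease (1.31 to 1.96, adjusted p = 0.000939), with overlap in both. The latter was lost with the most variable probe set (adjusted p = 0.112). Against untreated mice of week 12 the Ackr2 difference was 0.35 and did not pass (adjusted p = 0.128). Of its further probe sets, 1 was higher at week 14 (adjusted p = 0.0381) and 1 was not (adjusted p = 0.487). Ackr3, the scavenger of Cxcl12, did not pass in any week. At week 14 all 7 platelet markers were higher in treated mice, with group means of 10.98 against 9.97, where 12.7% of all genes were higher. So were 3 of 6 erythroid markers (9.78 against 9.07) and 3 of 8 endothelial and stromal markers (4.28 against 3.95). At weeks 2 to 12 no marker of these lists was higher. Their part in the week 14 differences of Ccl2, Ccl8 and Ackr2 was not tested.

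Of the ligands of Cxcr2, the main receptor for recruitment of neutrophils, Cxcl2 alone passed in the mean over the weeks, while Cxcl1, Cxcl5 and Cxcl15 had mean differences of 0.13, -0.04 and 0.02. Cxcl2 lay at or below the olfactory level in all but 2 mice. Treated mice of week 12 ran from 1.88 over 1.95 to 2.71 and untreated mice from 1.49 over 1.62 to 1.86, without overlap, yet the difference of 0.45 did not pass (adjusted p = 0.403). Single treated mice stood out at 5.45 (week 4, replicate 5) and 4.12 (week 8, replicate 7), the 2 highest values of this gene on any array. The mean difference was 1.32-fold (1.14 to 1.52, adjusted p = 0.00274), and without these mice it was 1.20-fold (adjusted p = 0.000238).

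The interferon-inducible ligands of Cxcr3 were not called where the interferon-induced genes were. Of 9 interferon-induced markers 8 were higher at each week, where 1.85% (week 8) to 12.7% (week 14) of all genes were higher. Their median differences were 2.54 to 3.74 on the log2 scale. Group means of their mean level were 9.10 to 9.52 in treated and 6.44 to 7.27 in untreated mice. Over the same weeks Cxcl9, Cxcl10 and Cxcl11 passed in no comparison with untreated mice. Their mean differences were -0.23 (95% CI -0.53 to 0.08), 0.15 (-0.08 to 0.37) and 0.06 (-0.07 to 0.18). Cxcl10, whose promoter above carries the response element, ran from 3.59 over 4.18 to 4.52 in treated mice at week 2 and from 3.54 over 4.01 to 4.42 in untreated mice. At week 14 it ran from 3.95 over 4.34 to 4.71 against 3.86, 4.33 and 5.10. The groups lay further apart at week 4, with 3.77, 4.39 and 4.88 against 3.38, 3.92 and 4.72. The same held at week 12, with 4.33, 4.62 and 5.12 against 3.80, 4.22 and 4.64. At weeks 4 and 12 Cxcl10 was higher at an unadjusted limma p under 0.05, but not after adjustment. Probe sets of Cxcl9 and Cxcl11 lay at or below the olfactory level, and that of Cxcl10 lay above it.

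The highest signals of these ligands came from untreated animals. An untreated mouse of week 8 (replicate 3) had Cxcl9 at 6.02, Cxcl10 at 6.92 and Cxcl11 at 3.32, and a mouse with spontaneous disease (replicate 5) had 5.39, 7.07 and 2.92. These 2 mice held the 2 highest of all 88 values for each of the 3 genes, and the next mouse for Cxcl9 was an untreated mouse of week 8 (replicate 8) at 4.34. Their means of the interferon-induced markers were 8.15 and 8.20, the highest of their groups, though below every treated mouse but 1. Without the mouse of week 8 the Cxcl9 difference at that week went from -0.89 to -0.41, and neither passed. The mean Cxcl10 difference over the weeks went from 0.15 to 0.21 without that mouse and did not pass (adjusted p = 0.121). Without the mouse with spontaneous disease the Cxcl9 difference from untreated mice of week 14 went from 0.59 to 0.15, and again neither passed.

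**Figure D4:**
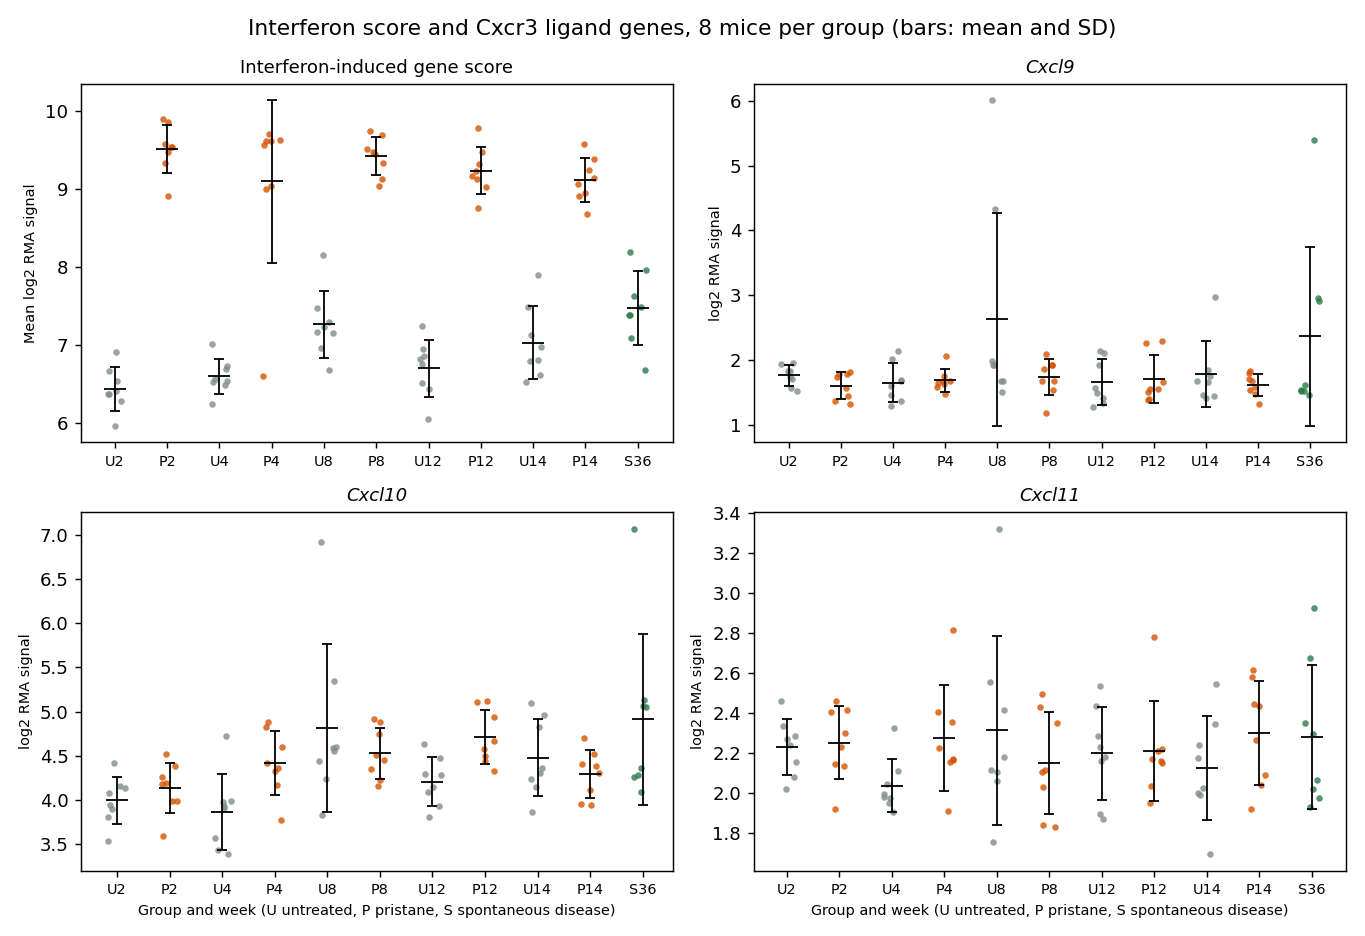
Mean log2 signal of 9 interferon-induced markers and the log2 RMA signals of Cxcl9, Cxcl10 and Cxcl11 in each mouse (vertical axes) by group and week (U untreated, P pristane, S spontaneous disease), with bars for the mean and SD of 8 mice. The score separates treated from untreated mice apart from 1 treated mouse of week 4, whereas the ligands do not, and their highest points are an untreated mouse of week 8 and a mouse with spontaneous disease.

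Cxcr3, the receptor of these ligands on activated T and NK cells, had a pristane difference that changed between weeks. Treated mice ran from 5.32 over 5.78 to 6.20 at week 2 and untreated mice from 5.97 over 6.35 to 7.26, a difference of -0.71 that did not pass (adjusted p = 0.075), although it did in 4 of the alternatives. By week 12 treated mice ran from 6.41 over 7.46 to 8.35 and untreated mice from 6.11 over 6.33 to 7.07, which was 1.93-fold higher (1.395 to 2.66, adjusted p = 0.00947). The differences at weeks 4, 8 and 14 were -0.29, 0.55 and 0.21. Against untreated mice of week 12, treated mice of week 14 were 1.61-fold higher (1.17 to 2.23, adjusted p = 0.0438). That control was younger, and untreated means of Cxcr3 were 6.46 at week 12 and 6.94 at week 14. The interaction passed (adjusted p = 0.00341), and the difference at week 12 exceeded that at week 2 by 3.15-fold (2.00 to 4.98, adjusted p = 0.0433). Of all genes, 3.16% passed the interaction test, and of the 46 genes Cxcr3 and Ackr4 did (4.35%). At single weeks, 1.29% of all genes were lower at week 2, and 2.7% were higher and 1.06% lower at week 12. Of 9 NK cell markers 3 were lower at week 2 and 1 was higher at week 12. Of 9 T cell markers 2 were lower at week 12 and none was called at week 2. The part of these markers in the Cxcr3 change was not tested.

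Without week 14 the Cxcr3 interaction had a smaller raw p (6.35e-06 against 1.92e-05) but did not pass after adjustment (adjusted p = 0.0955), since 1 probe set of the whole array passed that test against 1371 with week 14. Ackr4, which scavenges Ccl19, Ccl21 and Ccl25, passed the interaction as well (adjusted p = 0.0309), though not without week 14 (adjusted p = 0.525). Untreated mice ran from 2.96 over 3.34 to 3.68 at week 2 and from 2.49 over 2.63 to 3.13 at week 14, while treated mice had medians of 2.81 to 3.035 over the 5 weeks. At week 2 treated mice were 1.41-fold lower (1.17 to 1.70, adjusted p = 0.0226), which was lost with centred arrays (adjusted p = 0.0559) and in a fit of these groups alone (adjusted p = 0.0679). All of these values lie under the olfactory level.

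Cxcr5, the receptor that guides B cells and follicular helper T cells to Cxcl13 in follicles, was lower in treated mice. At week 2 treated mice ran from 5.64 over 6.05 to 7.04 and untreated mice from 6.26 over 7.11 to 7.49. At week 12 they ran from 5.49 over 6.21 to 6.79 against 6.46, 7.002 and 7.23, and at week 14 from 5.62 over 6.35 to 7.35 against 6.53, 7.19 and 7.38. The groups overlapped each time, with lower medians in treated mice. Cxcr5 was 1.82-fold lower at week 2 (1.33 to 2.48, adjusted p = 0.0163), 1.76-fold at week 12 (1.29 to 2.40, adjusted p = 0.0258) and 1.65-fold at week 14 (1.21 to 2.26, adjusted p = 0.0145). In the mean over the weeks it was 1.605-fold lower (1.40 to 1.845, adjusted p = 8.53e-08). At week 14 the call was lost with the array spread as a covariate, where the difference was -0.35 (adjusted p = 0.241), and against untreated mice of week 12 (-0.65, adjusted p = 0.0501). B cell markers were lower as well, 7 of 8 in the mean over the weeks, where 13.7% of all genes were lower. Their group means were 7.74 to 7.97 in treated and 8.24 to 8.64 in untreated mice. T cell markers were lower in 5 of 9, with group means of 7.48 to 8.03 against 7.85 to 8.20, and the part of either list in the Cxcr5 difference was not tested. Ccr6, another receptor of B cells and of Th17 cells, had a mean difference of -0.30 that did not pass (adjusted p = 0.0725).

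Xcl1 (lymphotactin), a product of NK cells and CD8+ T cells, was lower at week 2, where treated mice ran from 3.21 over 3.86 to 4.54 and untreated mice from 4.03 over 4.58 to 5.06. The groups overlapped, and the fall was 1.69-fold (1.32 to 2.16, adjusted p = 0.00569). The mean over the weeks was 1.27-fold lower (1.13 to 1.41, adjusted p = 0.000596), with a difference of 0.11 at week 12. NK cell markers were lower in the mean, 7 of 9, where 13.7% of all genes were lower. Their group means were 5.65 to 6.19 in treated and 6.005 to 6.44 in untreated mice. The part of the NK cell and T cell markers in the Xcl1 difference was not tested. Cxcr6, the receptor of Cxcl16 on effector lymphocytes, was 1.46-fold lower at week 14 (1.15 to 1.85, adjusted p = 0.016), at a signal at or below the olfactory level. Its other probe set did not pass (adjusted p = 0.302), nor did Cxcr6 against untreated mice of week 12. At week 14, 5 of 9 T cell markers were lower as well, where 9.72% of all genes were lower. Cxcl16 itself was 1.18-fold lower in the mean (1.04 to 1.33, adjusted p = 0.0411), but its other probe set differed by 0.17 upward and did not pass (adjusted p = 0.212).

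**Figure D5:**
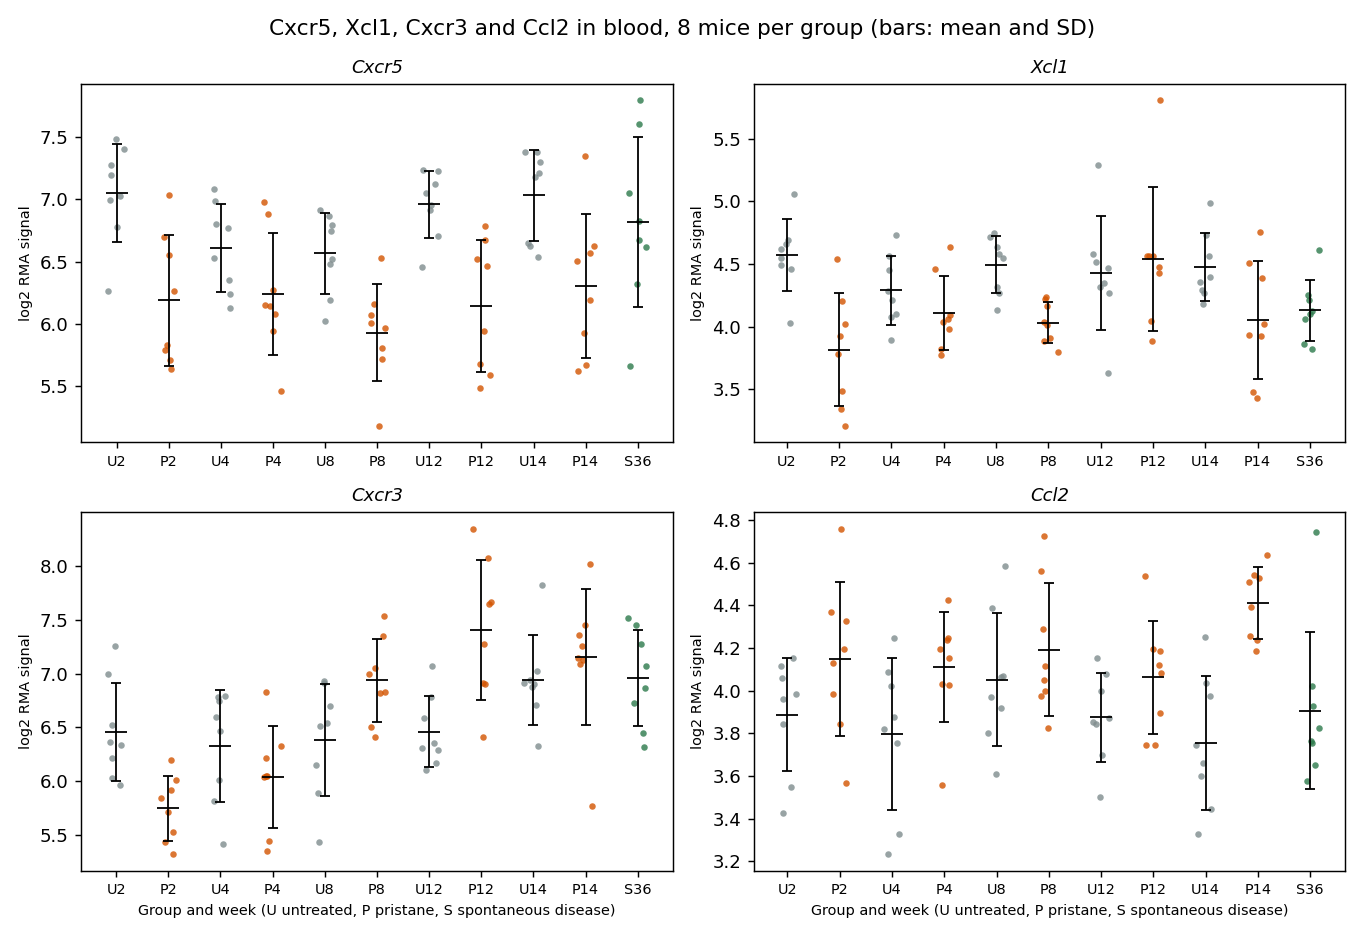
Signal of Cxcr5, Xcl1, Cxcr3 and Ccl2 in each mouse (log2 RMA signal, vertical axis) by group and week (U untreated, P pristane, S spontaneous disease), with bars for the mean and SD of 8 mice. Treated means of Cxcr5 lie below untreated means at all 5 weeks, the Cxcr3 difference is -0.71 at week 2 and 0.95 at week 12, and Ccl2 of treated mice at week 14 sits between 4.19 and 4.64.

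The homeostatic and tissue ligands, which position lymphocytes in lymphoid organs and epithelia, were mostly not called. Of 10, Ccl27a alone passed in the mean over the weeks, 1.19-fold lower (1.07 to 1.32, adjusted p = 0.0122), and its probe sets disagreed. Another was 1.17-fold higher in the mean (adjusted p = 0.00792), and the remaining ones did not pass. After quantile normalization Ccl27a did not pass either. The other 9, among them Cxcl12, Cxcl13, Ccl19 and Ccl25, had mean differences between -0.05 (Ccl25) and 0.23 (Cxcl14). The other Cxcl14 probe set was 1.298-fold higher in the mean (adjusted p = 0.0103). Of the 5 ligands of eosinophils and helper T cells Ccl17 was 1.14-fold higher in the mean (1.04 to 1.25, adjusted p = 0.0257). It passed in no single week, and the mean did not pass with centred arrays, with the array spread as a covariate or without week 14. Among the receptors, Ccr4, Ccr8, Ccr10, Xcr1 and Ccr1l1 passed in no pristane comparison.

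Spontaneous disease was compared with the untreated mice of week 14, the oldest of the other untreated groups, which were younger. Limma called 0 of the 46 genes and 0% of all genes, with this control also 0 of the 46 under every alternative, and at an unadjusted p under 0.05 there were 1 of 46 (Cxcl14, 1.59-fold higher) and 3.47% of all genes. Cxcl14 lay at or below the olfactory level, and without its highest mouse (replicate 4, at 5.30) the difference was 1.308-fold. Ccr1 ran from 5.38 over 6.68 to 7.52 in spontaneous disease, overlapping the untreated range, and the difference was 0.23 (95% CI -0.45 to 0.91). Cxcr5 ran from 5.66 over 6.75 to 7.80, with a difference of -0.21 (-0.66 to 0.24). Against the mean of all 5 untreated groups Ccl9 was 1.81-fold higher (1.45 to 2.26, adjusted p = 0.00195), and no other gene of the 46 passed. Between pristane at week 14 and spontaneous disease Ccl2 and Ackr2 were higher with pristane, 4.35% of the 46, where 10% of all genes passed (5.59% higher, 4.42% lower). The Ccr1 difference there was 0.68 (0.00 to 1.36, adjusted p = 0.197), which passed with the array spread as a covariate, with the other probe set and without the low mouse of replicate 7.

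The untreated mice also differed between weeks, where age and any batch that the labels do not name cannot be told apart. Between weeks 2 and 14 untreated mice had 2 genes higher (Ccl3, Ccl9) and 5 lower (Ackr4, Ccl1, Ccl22, Ccr4, Ccr10), 15.2% of the 46 against 24.3% of all genes (10% higher, 14.3% lower). Ccl3 was 2.12-fold higher (1.299 to 3.46, adjusted p = 0.0232). Ccl22, a ligand of Ccr4 made by dendritic cells and macrophages, was 1.665-fold lower (1.28 to 2.17, adjusted p = 0.00524). Ccr4 was 1.53-fold lower (1.22 to 1.92, adjusted p = 0.00631). Of the genes called lower, Ccl22 alone lay above the olfactory level, and Ackr4, Ccl1, Ccr4 and Ccr10 lay at or below it. With the array spread as a covariate, Ccl9 alone passed. These untreated mice of week 14 are also the controls of the treated mice of that week, so the comparisons share arrays.

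Genes that act with the chemokine system but lie outside the symbol rule were counted too. Of 11 measured, 3 were higher and 3 lower in the mean over the weeks, where 12.8% of all genes were higher and 13.7% lower. Ccr9, the gut-homing receptor, was 2.09-fold lower (1.76 to 2.49) and Cx3cr1, the fractalkine receptor of patrolling monocytes and NK cells, 1.955-fold lower (1.64 to 2.32). Cxcr2 was 1.66-fold higher (1.42 to 1.94) and Ccr2 1.47-fold higher (1.26 to 1.72). Ccr2 is also counted among the monocyte markers above. Of 28 measured signalling genes downstream of the receptors, 1 passed at each of weeks 2 to 12 (2.63% to 3.77% of all genes). At week 14, 8 were higher and 3 lower, where 22.4% of all genes passed. In the mean over the weeks 7 were higher and 2 lower, where 26.5% of all genes passed (12.8% higher and 13.7% lower). Those higher included Rgs2, a brake on G protein signalling (1.49-fold higher), the beta-arrestin Arrb2 (1.35-fold), the G protein subunit Gnai2 (1.23-fold) and the receptor kinase Grk5 (1.29-fold).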

How the data were processed

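RNA of whole blood was hybridised to Affymetrix HT MG-430 PM arrays, 1 per mouse. The authors deposited log2 values that they had summarised by RMA. Partek is named in the submitters' processing notes and R with Bioconductor in the study's methods for mouse arrays. The annotation build is not given in the sources used here. Precision rests on the number of arrays. The deposited table held 45141 probe sets, and 45037 were tested after removal of 104 controls. Limma 3.58.1 (R 4.3.3) fitted the means of all 11 groups jointly, leaving 77 residual and 5.81 prior degrees of freedom. Benjamini-Hochberg adjustment covered the 45037 probe sets, separately for each comparison, and genes passed at an adjusted p under 0.05. The interaction is a moderated F test of the pristane differences at 4 weeks against that at week 2. Background shares are over the 17097 genes with a single-gene probe set.

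Symbols came from the array's annotation, and 45 of the 46 genes matched RefSeq by Entrez ID. The members and lists were chosen with earlier results of these data known. Full statistics go to genes past 2-fold at any week, the 10 with the lowest p of the mean over the weeks, and those that passed against spontaneous disease or in the interaction. Other genes of the 46 were named after their values were seen. Simulated data with known changes served as a test of the scripts. Alternatives were other scalings, a covariate, a filter on dim probe sets, another prior, a replicate block, other probe sets, other controls, smaller fits and single arrays left out. The labels number the mice within groups, and nothing says that they came from separate cages or litters.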

Additional observations from a re-analysis of the deposited data

Results flagged for a closer look

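For 12 genes with full statistics, the highest or lowest mouse of each group was compared with the spacing of the others in 132 groups of 8, and 14 values of single genes stood apart, some of them from the same mouse. Chance alone gives about 1 in 20 groups, or 6.6. Low in pristane-treated groups were Ccr1 at 4.263 (week 14, replicate 7), Ccl3 at 2.565 and Cxcr3 at 5.774 (both week 14, replicate 1), Ccl3 at 3.734 (week 2, replicate 6), Ccl9 at 8.28 (week 4, replicate 7) and Ccl2 at 3.559 (week 4, replicate 5). High in them were Cxcl2 at 5.452 (week 4, replicate 5) and at 4.121 (week 8, replicate 7), and Xcl1 at 5.81 (week 12, replicate 1).

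In untreated mice Ackr4 was high at 4.171 (week 4, replicate 8) and Cxcr3 at 7.826 (week 14, replicate 1), while Ccl3 was low at 3.651 (week 14, replicate 4) and Ccl6 at 9.76 (week 14, replicate 8). In spontaneous disease Ccl2 was high at 4.742 (replicate 8). The treated mouse of week 4 with the highest Cxcl2 was thus also the lowest of its group for Ccl2.

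The pristane difference changed between weeks by the interaction test in Cxcr3 (adjusted p = 0.00341) and Ackr4 (adjusted p = 0.0309).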

How the results depend on the processing

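Across the alternatives, 85 counts of genes that passed stayed within 1.5 times the reported one, 8 were larger and 9 smaller. For single genes, 317 values kept their direction and their side of the threshold, 21 no longer passed and 0 reversed. At week 4, 2 genes passed (Ccl9 joined Ccr1) when arrays were centred on their brightest 25% of probe sets, with the array spread as a covariate and with the replicate block. At week 8, 2 passed with the spread as a covariate (with Cxcl16) and in a fit of the 2 groups alone (with Xcl1). The filter on dim probe sets, which leaves 19 of the 46 genes to test, gave 2 at week 14, 0 for pristane against spontaneous disease and 1 in the interaction. Without week 14, chosen after seeing the data, the mean over the weeks gave 9, all among the 14 reported (Ackr2, Ccl7, Ccl8, Ccl17 and Cxcl16 no longer passed), and the interaction 0. Against the mean of the 5 untreated groups spontaneous disease gave 1, and pristane at week 14 against spontaneous disease gave 1 in a fit of those groups alone. Untreated mice of week 14 against week 2 gave 15 when centred, 1 with the spread as a covariate and 12 in a fit of those groups alone, and centring moved the median of all genes there from -0.069 to -0.238. The interaction gave 1 when centred. The cause was not tested. Leaving out single arrays, most of them chosen after seeing the data, gave 13 to 15 genes for the mean over the weeks, 6 to 7 at week 14, 1 to 3 for pristane at week 14 against spontaneous disease (1 without the spontaneous mouse of replicate 4), 2 in the interaction, 1 at weeks 4 and 8 and 0 for spontaneous disease.

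The values did not settle whether equal replicate numbers pair mice. Of 40 same-numbered pairs, 10 had deviations correlated over 0.1 (range -0.24 to 0.543) and 8 correlated best with their own number. Weekly median correlations ran from -0.017 to 0.063 in these pairs and from -0.005 to 0.014 in pairs of other numbers. How often the latter exceeded 0.1 was not counted. With the replicate block 14 genes passed in the mean over the weeks, as without it, and 9 instead of 7 in untreated mice of week 14 against week 2. At week 14 the call of Ccr1 was lost in a fit of the 2 groups alone (adjusted p = 0.161). Signals at or below the olfactory level limit 27 of the 46 genes, where small differences may be lost.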
